A study of Homo sapiens with 4 samples.

Results

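Matricellular proteins are secreted into the extracellular matrix but mostly act as signals there rather than as load-bearing fibres: they bind integrins, growth factors and collagen, and they adjust how firmly cells attach and how they read their surroundings. Fibronectin is the adhesive glycoprotein on which many of them assemble, and cells organise it into fibrils through integrins. Several of the genes are textbook responders to mechanical tension, acting through YAP and TEAD, or to TGF-beta. In the brain, SPARC and tenascin C are known mainly as glial products, whereas fibronectin and periostin are known from fibroblasts and other mesenchymal cells.

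Expression of 10 such genes was examined: FN1 (fibronectin), SPARC, POSTN (periostin), THBS1 and THBS2 (thrombospondins), TNC (tenascin C), CCN1, CCN2, FBLN1 (fibulin 1) and CILP (cartilage intermediate layer protein). They were taken by symbol from a table of 25283 genes, and all 10 were found and tested. RNA-seq had been made from cells labelled as neurons. They came from the human embryonic stem cell line H1, an established line, by way of neural progenitors matured in a commercial medium, and had been exposed to a lentiviral vector for 36 hours. The U1_OE group (2 libraries) overexpressed U1 snRNA, the RNA of the particle that marks 5′ splice sites, and the control group (2 libraries) was wild type with an empty vector. The treatment text of the control samples also names the overexpression vector, so groups were assigned by genotype label and title. No label names separate cultures behind the 2 libraries of a group. The p-values therefore measure only how far these libraries differ, and that spread may be technical.

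Estimated counts summed to 16713505 and 19057423 in the U1_OE libraries and to 17061796 and 17636307 in the control libraries. Levels are given as CPM, counts in each 1e6 of the library after TMM scaling. The neuronal markers were mostly low. Of 16 listed genes 14 were measured and 10 tested, and 1 was above 10 CPM in all 4 libraries. That gene was TUBB3, a neuronal tubulin, at 264 and 338 CPM in U1_OE and 159 and 104 CPM in control libraries. GAP43, which acts in axon growth, stood at 46.9 and 11.5 CPM in U1_OE and 3.30 and 1.27 CPM in control libraries. DESeq2 called both as higher in U1_OE (adjusted p = 0.00134 for TUBB3 and 4.63e-05 for GAP43). Of the 10 tested, those 2 were called higher and 0 lower, beside 0.614% and 0.47% of all genes. SNAP25, of the synapse, had 8.19 and 6.66 CPM in U1_OE and 6.77 and 5.53 CPM in control, and MAP2, of dendrites, 6.59 and 4.88 CPM in U1_OE and 4.94 and 2.65 CPM in control. Doublecortin (DCX), which marks young neurons, had 0 and 0.157 CPM in U1_OE libraries and 0 and 0.111 CPM in control libraries. The measured neuronal genes summed to 340 and 375 CPM in U1_OE and to 193 and 127 CPM in control libraries. Their median was 2.03 and 1.68 CPM in U1_OE and 1.47 and 1.19 CPM in control libraries.

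The 22 genes of a mesenchymal and fibroblast list summed to 94086 and 83108 CPM in U1_OE and to 68224 and 86563 CPM in control libraries. COL1A1, COL1A2 and COL3A1, fibrillar collagen genes, gave most of that sum. The median of the 22 was 1135 and 861 CPM in U1_OE and 696 and 895 CPM in control libraries. Gene by gene, 18 of the 22 log2 fold changes by edgeR were positive and 4 negative, with a median of 0.42 beside -0.01 over all tested genes. Both U1_OE libraries lay above both control libraries in 10 of the 22 and below them in 1, beside 19.7% above and 22% below over all tested genes. DESeq2 called 2 as higher, LOX and COL6A1, and 0 as lower, beside 0.614% and 0.47% of all genes.

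The 9 measured astrocyte markers summed to 1206 and 1299 CPM in U1_OE and 1277 and 1499 CPM in control libraries. Most of that was GJA1, a gap junction gene, at 973 and 980 CPM in U1_OE and 1178 and 1384 CPM in control, and the only 1 of the 5 tested astrocyte markers that was lower in both U1_OE libraries. The other 4 were higher in both, beside 19.7% of all tested genes, and the median log2 fold change over the 5 was 0.90. DESeq2 called CD44 and SOX9 as higher and 0 as lower, beside 0.614% and 0.47% of all genes. CD44, a hyaluronan receptor also found on mesenchymal cells, had 188 and 275 CPM in U1_OE and 83.5 and 87.1 CPM in control libraries. Summed levels were also higher in both U1_OE libraries for 9 smooth muscle and pericyte markers. They were 588 and 655 CPM in U1_OE against 334 and 234 CPM in control. Of the 8 tested, 7 log2 fold changes were positive and 1 negative, with a median of 1.12. In 5 of the 8 both U1_OE libraries lay above control and in 0 below, beside 19.7% and 22% of all tested genes. DESeq2 called 1 as higher and 0 as lower, beside 0.614% and 0.47% of all genes. For 7 measured endothelial markers the sums were 59.2 and 93.9 CPM in U1_OE against 32.2 and 38.0 CPM in control. Only 1 of the 7 endothelial markers was above 10 CPM in all 4 libraries. Their median was 0.677 and 0.367 CPM in U1_OE and 0.706 and 0.940 CPM in control. Of the 4 tested, 3 lay above control in both U1_OE libraries and 1 below, beside 19.7% and 22% of all tested genes. DESeq2 called 1 of the 4 as higher and 0 as lower, beside 0.614% and 0.47% of all genes. The 4 measured microglia and blood markers summed to 71.9 and 82.3 CPM in U1_OE and 49.3 and 41.5 CPM in control. Nearly all of that was CD68, a lysosomal gene, at 69.3 and 80.8 CPM in U1_OE and 48.8 and 40.9 CPM in control. Every measured marker had at least some counts in a library, and the endothelial genes CDH5 and VWF stayed under 1 CPM in all 4. The part of any of these cell types in the values below was not tested, and in bulk RNA fewer cells of a type and less RNA per cell cannot be told apart.

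SPARC and FN1 were among the most abundant transcripts of the cells. By estimated count SPARC ranked 3 and 2 of all genes in the U1_OE libraries and 4 in both control libraries, and FN1 ranked 4 and 3 in U1_OE and 3 and 5 in control. All 10 genes summed to 33670 and 35294 CPM in the U1_OE libraries and to 40098 and 34341 CPM in the control libraries. Most of that came from FN1 and SPARC, and the other 8 genes summed to 4128 and 3825 CPM in U1_OE and to 3704 and 2806 CPM in control.

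Levels of different genes were compared per kb of exon, with all exons annotated in GENCODE merged. On that scale SPARC stood first, at 3353 ± 92.4 CPM per kb in U1_OE and 3699 ± 279 CPM per kb in control libraries (SD, n = 2 each). FN1 followed at 826 ± 52.9 CPM per kb in U1_OE and 929 ± 276 CPM per kb in control, and CCN2 at 453 ± 28.3 CPM per kb in U1_OE and 366 ± 209 CPM per kb in control. Over the 4 libraries, the ranges of SPARC, FN1, CCN2 and CCN1 did not overlap between neighbours in this order. CCN1 at 145 ± 30.7, THBS1 at 119 ± 11.4 and THBS2 at 86.9 ± 12.1 CPM per kb in U1_OE (123 ± 82.1, 101 ± 19.3 and 90.3 ± 12.1 CPM per kb in control) could not be ranked, since each overlapped the next. TNC, POSTN and FBLN1 likewise overlapped in turn, with means over all libraries of 48.4, 32.8 and 14.2 CPM per kb. CILP lay far below, at 0.325 ± 0.0299 CPM per kb in U1_OE and 1.49 ± 0.720 CPM per kb in control. FN1 has 17315 merged exon bases, more than any other of the 10 genes, so its level per kb depends on which isoforms are counted, and gene counts do not separate its splice forms.

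**Figure D1:**
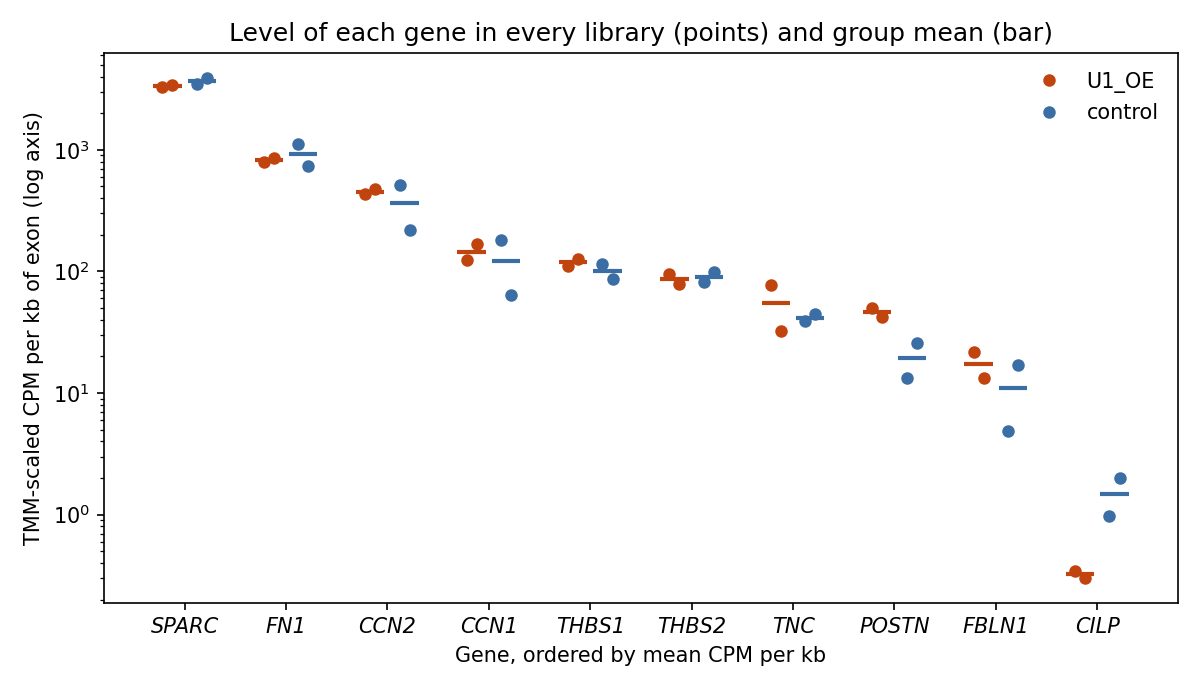
TMM-scaled CPM per kb of exon (log axis) of each of the 10 genes, with 1 point per library and a bar at the mean of each group of 2 libraries. SPARC and FN1 lie above the rest, CILP far below, and POSTN and CILP are the genes whose groups stand visibly apart.

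The question the design puts to these genes is whether they differ between U1_OE and control cells. The quasi-likelihood test of edgeR was adjusted by Benjamini-Hochberg over 17317 tested genes. It called 0 of the 10 at an adjusted p under 0.05, and 0% of all tested genes. The smallest adjusted p of any tested gene in that fit was 0.459, reached by genes whose unadjusted p differed. At an unadjusted p under 0.05 there were 2 of the 10, POSTN (higher) and CILP (lower), beside 9.08% of all tested genes (4.36% higher and 4.72% lower), and limma-voom called 0 of the 10. DESeq2, the second tool, called the same 2 genes, POSTN higher and CILP lower in U1_OE, where it called 1.08% of all genes (0.614% higher and 0.47% lower). The U1_OE and control ranges were apart for 3 of the 10 genes, POSTN above and SPARC and CILP below, beside 41.8% of all tested genes (19.7% above and 22% below). Of the 10 log2 fold changes by edgeR (U1_OE over control) 6 were positive and 4 negative, with a median of 0.24, beside a median of -0.01 over all tested genes. That median became -0.0020 without control replicate 2.

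POSTN encodes periostin, a fasciclin-domain protein of fibroblasts that binds integrins and supports collagen cross-linking. It had 273 and 230 CPM in the U1_OE libraries and 72.4 and 142 CPM in the control libraries. Both U1_OE libraries lay above both control libraries, and the control libraries differed from each other 1.96-fold. The log2 fold change was 1.23 ± 0.34 by edgeR (SE; unadjusted p = 0.0162, adjusted p = 0.481) and 1.25 ± 0.31 by DESeq2 (adjusted p = 0.00938). With a library left out, DESeq2 kept this call only without control replicate 2, where the log2 fold change was 1.80 (adjusted p = 1.10e-05). It was 0.84 without control replicate 1 (0.454), 1.13 without U1_OE replicate 1 (1.00) and 1.35 without U1_OE replicate 2 (0.869), none of them called.

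CILP encodes a matrix protein of cartilage and fibrous tissue that is known to bind TGF-beta. It had 1.97 and 1.73 CPM in the U1_OE libraries, from 32 and 33 counts, and 5.59 and 11.4 CPM in the control libraries, from 95 and 206 counts. Both U1_OE libraries lay below both control libraries, and the U1_OE libraries were nearly equal. The mean control level was 4.59-fold that of U1_OE, with a log2 fold change of -2.20 ± 0.43 by edgeR (SE; unadjusted p = 0.00412, adjusted p = 0.459) and -2.18 ± 0.62 by DESeq2 (adjusted p = 0.0416). DESeq2 did not call CILP with any library left out. It was -2.27 without U1_OE replicate 1 (adjusted p = 0.246), -2.10 without U1_OE replicate 2 (0.242), -2.61 without control replicate 1 (0.281) and -1.59 without control replicate 2 (1.00).

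SPARC, a collagen-binding glycoprotein that assists collagen secretion and matrix assembly, varied least. It had 15882 and 16513 CPM in the U1_OE libraries and 16917 and 18824 CPM in the control libraries. The U1_OE libraries were the lower pair, by a small margin. The log2 fold change was -0.14 ± 0.13 by edgeR (SE; adjusted p = 0.782). Across 3028 other tested genes with a mean of at least 50 CPM, the nearest in pattern over the 4 libraries, by Euclidean distance between row-centred log2(CPM + 1) values, were SAFB (0.0290), NDUFA10 (0.0392) and ARGLU1 (0.0401).

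FN1 had 13659 and 14956 CPM in the U1_OE libraries and 19477 and 12711 CPM in the control libraries. The control libraries were the highest and the lowest of the 4, with both U1_OE libraries between them. The log2 fold change was -0.17 ± 0.23 by edgeR (SE; adjusted p = 0.865), and its sign turned to 0.19 without control replicate 1.

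CCN1 and CCN2 encode cysteine-rich adhesive proteins that bind integrins and heparan sulfate, and both are standard readouts of YAP and TEAD activity. CCN1 had 302 and 409 CPM in the U1_OE libraries and 443 and 158 CPM in the control libraries. CCN2 had 1014 and 1107 CPM in U1_OE libraries and 1202 and 511 CPM in control libraries. In both genes, as in FN1, control replicate 1 was highest and control replicate 2 lowest, and the U1_OE libraries lay between. The control libraries thus differed 2.80-fold for CCN1 and 2.35-fold for CCN2, more than the group means did. The log2 fold changes were 0.24 ± 0.50 for CCN1 (SE; edgeR adjusted p = 0.917) and 0.31 ± 0.41 for CCN2 (adjusted p = 0.860). Without control replicate 2 they became -0.32 and -0.18, and without control replicate 1 they became 1.19 and 1.07, and DESeq2 then called CCN2 (adjusted p = 0.0489) but not CCN1 (0.0616).

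**Figure D2:**
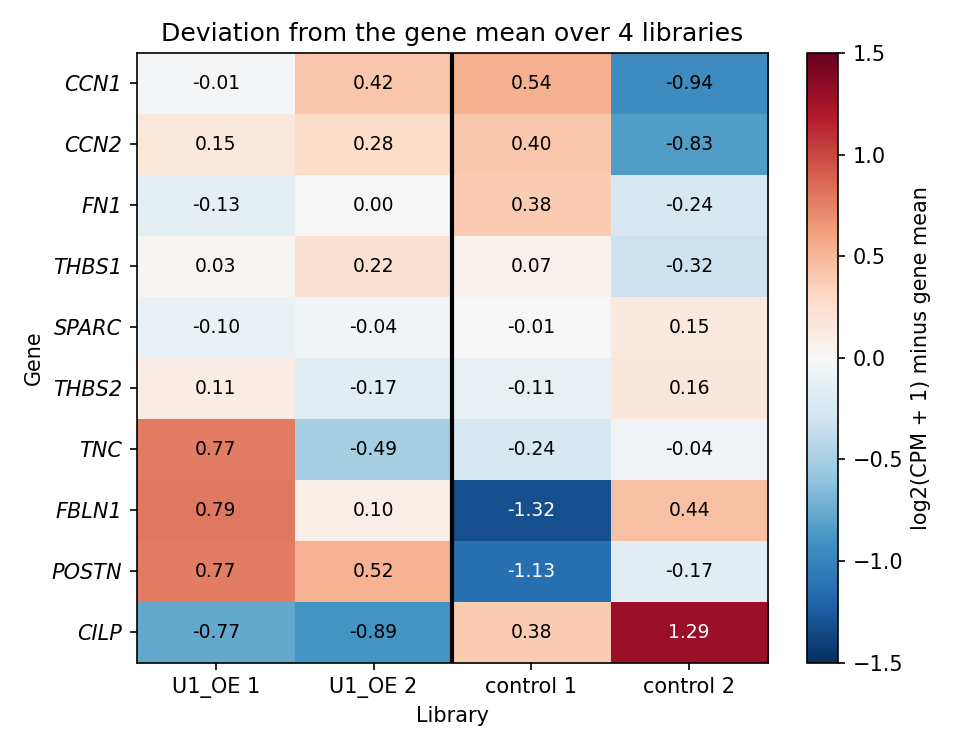
Deviation of log2(CPM + 1) from each gene's mean over the 4 libraries, U1_OE libraries on the left of the line and control libraries on the right. CCN1 and CCN2 were lowest in control replicate 2 (-0.94 and -0.83), FBLN1 and POSTN lowest in control replicate 1 (-1.32 and -1.13), and TNC was highest in U1_OE replicate 1 (0.77).

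THBS1 encodes thrombospondin 1, which activates latent TGF-beta and inhibits angiogenesis. It had 1018 and 1165 CPM in the U1_OE libraries and 1047 and 797 CPM in the control libraries. Control replicate 2 was again the lowest, and control replicate 1 lay between the U1_OE libraries. The log2 fold change was 0.24 ± 0.19 by edgeR (SE; adjusted p = 0.740). THBS2, a related thrombospondin that limits matrix metalloprotease levels in mice, had 612 and 503 CPM in U1_OE libraries and 524 and 634 CPM in control libraries. Its groups interleaved, with a log2 fold change of -0.06 ± 0.18 (edgeR adjusted p = 0.953). Its sign turned to 0.08 without U1_OE replicate 2 and to 0.09 without control replicate 2.

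The libraries were ordered alike in FN1, CCN1 and CCN2: control replicate 1, U1_OE replicate 2, U1_OE replicate 1, control replicate 2, from high to low. That order was found in 470 of 17317 tested genes (2.71%). It was found in 2 of 27 genes of a list of the YAP-TEAD pathway and its targets (CRIM1 and AJUBA), in 1 of 24 of a TGF-beta list (IGFBP3), and in 0 of 26 relatives and 0 of 18 receptor genes. CRIM1, a membrane regulator of BMP signalling, had 60.2 and 97.7 CPM in U1_OE libraries and 107 and 53.3 CPM in control libraries. ANKRD1, a much used YAP target, had 21.4 and 89.9 CPM in U1_OE libraries and 99.5 and 21.6 CPM in control libraries, and F3, tissue factor, 8.75 and 19.3 CPM in U1_OE against 17.8 and 8.74 CPM in control. In ANKRD1 and F3, which were picked after their values were seen, U1_OE replicate 2 and control replicate 1 were the higher libraries and the groups overlapped. The full order of ANKRD1 was found in 4.39% of all tested genes and that of F3 in 4.02%. In 9 of the 27 YAP-TEAD genes both U1_OE libraries were highest instead, beside 19.7% of all tested genes. These are orders of 4 libraries, given as a description with no test.

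Upstream sequence is shown for CCN2, THBS1 and FN1, which with CCN1 were the genes lowest in control replicate 2. They were picked after their values were seen. The sequences are from RefSeq on GRCh38.p14, read 5′ to 3′ on the gene's strand, and are limited to bases upstream of both the RefSeq start and the GENCODE gene span. Capitals mark GGAATG, the core recognised by TEAD factors, and TGACGTCA, the cAMP response element. The stretch for CCN2 is chr6:131951374-131951622 (minus strand), that for THBS1 chr15:39580829-39581078 (plus strand) and that for FN1 chr2:215436173-215436318 (minus strand).
CCN2: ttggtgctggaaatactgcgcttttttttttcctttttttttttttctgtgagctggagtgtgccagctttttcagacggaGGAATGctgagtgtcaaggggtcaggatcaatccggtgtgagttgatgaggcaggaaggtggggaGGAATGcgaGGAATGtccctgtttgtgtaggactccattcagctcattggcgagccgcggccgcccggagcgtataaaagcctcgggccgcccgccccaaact
THBS1: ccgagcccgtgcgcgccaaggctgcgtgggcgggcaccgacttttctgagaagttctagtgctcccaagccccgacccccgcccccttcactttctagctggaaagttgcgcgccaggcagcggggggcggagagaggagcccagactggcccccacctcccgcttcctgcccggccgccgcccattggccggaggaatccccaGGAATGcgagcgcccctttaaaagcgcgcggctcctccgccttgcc
FN1: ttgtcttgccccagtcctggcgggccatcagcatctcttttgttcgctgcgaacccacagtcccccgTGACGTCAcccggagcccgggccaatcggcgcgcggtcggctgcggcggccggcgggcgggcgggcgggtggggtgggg

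Within the 250 bases before the RefSeq start, searched on both strands, CCN2 held 3 matches to GGAATG that did not overlap, beginning 169, 104 and 95 bases before the start. THBS1 held 1, beginning 46 bases before the start. Of 9 genes with a sequence, 4 held the motif, the others being THBS2 with 2 and SPARC with 1. Unlike the sequences above, these counts use all 250 bases, some of which can lie inside the GENCODE gene span. Only 52 bases of THBS2 and 0 of SPARC were clear of that span, and the matches in both lie inside it. THBS2 and SPARC were highest, not lowest, in control replicate 2. Over 35116 windows of that length, 11.9% held at least 1 match and 0.0826% held 3 or more. FN1 held no GGAATG and held 1 TGACGTCA, 183 bases before the start, a motif present in 1.65% of windows. CCN2, POSTN and THBS2 held TATAAA, the TATA box, which was present in 10.7% of windows. These matches describe the letters only.

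TNC encodes tenascin C, a large matrix glycoprotein of development and wound repair that weakens adhesion to fibronectin. It had 750 and 312 CPM in the U1_OE libraries and 374 and 429 CPM in the control libraries. The U1_OE libraries were the highest and the lowest of the 4 and differed 2.40-fold. The log2 fold change was 0.40 ± 0.42 by edgeR (SE; adjusted p = 0.809). Without U1_OE replicate 1 it became -0.35, and without U1_OE replicate 2 it became 0.90, which DESeq2 called (adjusted p = 0.00126).

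FBLN1 encodes fibulin 1, a calcium-binding glycoprotein that binds fibronectin and basement membrane proteins. It had 157 and 97.3 CPM in the U1_OE libraries and 35.7 and 123 CPM in the control libraries. The control libraries differed 3.45-fold and the groups overlapped, since control replicate 2 lay between the U1_OE libraries. The log2 fold change was 0.68 ± 0.61 by edgeR (SE; adjusted p = 0.772). Leaving out control replicate 1 gave 0.07. Leaving out control replicate 2 gave 1.83, called by DESeq2 (adjusted p = 0.00143).

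**Figure D3:**
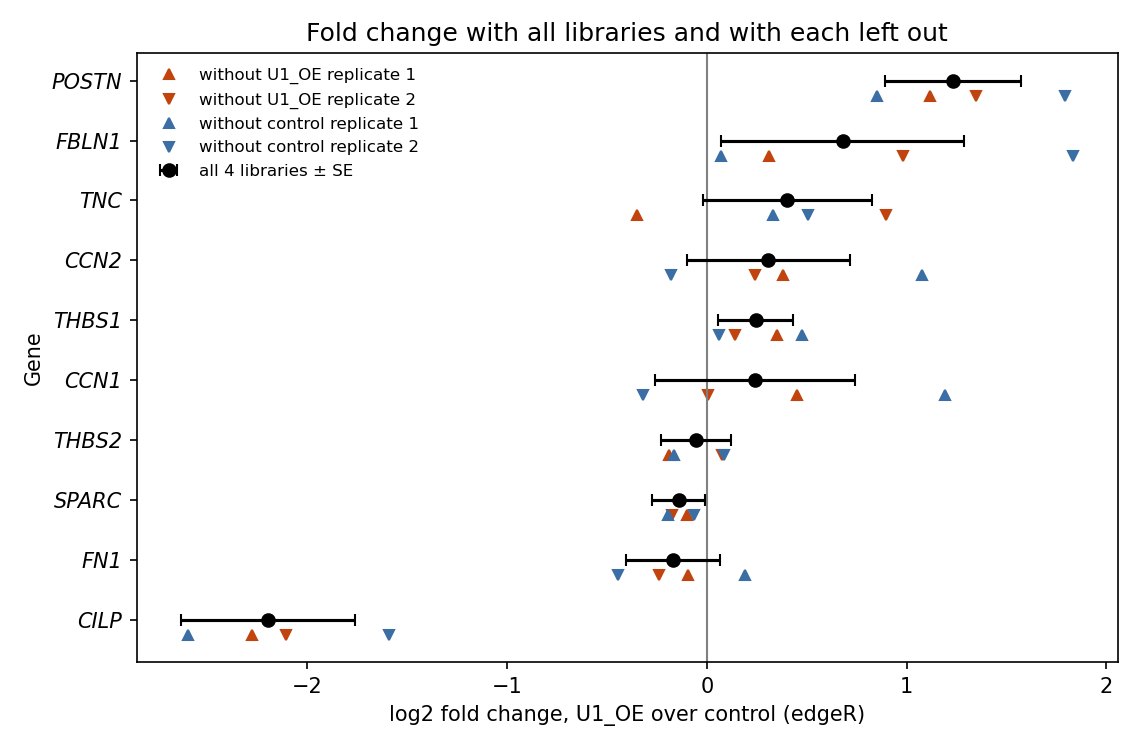
Log2 fold change (U1_OE over control, edgeR) of each gene with all 4 libraries (black, ± SE) and with each library left out (triangles). POSTN, THBS1 and FBLN1 stay positive and CILP and SPARC negative throughout, whereas FN1, CCN1, CCN2, THBS2 and TNC take both signs.

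Several of these genes overlap the span of another gene. The protocol mentions no strand-marking step, so reads from bases that both genes of a pair share cannot be told apart. Overlap was judged by whole gene spans, introns included, and overlap of exons was not examined. THBS1 (chromosome 15, 39581079 to 39599466, plus strand) holds THBS1-IT1 within its span, and overlaps THBS1-AS1 and the protein-coding gene FSIP1 on the opposite strand. THBS1-IT1 had 19.8 and 22.5 CPM in U1_OE libraries and 27.7 and 13.2 CPM in control libraries. THBS1-AS1 had 7.45 and 12.9 CPM in U1_OE libraries and 21.4 and 14.7 CPM in control libraries (log2 fold change -0.82 ± 0.34, SE; edgeR adjusted p = 0.570). THBS2-AS1, opposite THBS2 (chromosome 6, 169215780 to 169254044, minus strand), had 84.1 and 93.1 CPM in U1_OE and 98.5 and 99.2 CPM in control libraries. SPARC, TNC and CCN2 also overlap a gene on the opposite strand in GENCODE. POSTN (chromosome 13, 37562583 to 37598844, minus strand), FN1, FBLN1, CCN1 and CILP (chromosome 15, 65194758 to 65211488, minus strand) overlap none there.

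Relatives of these proteins had fold changes of both signs, none of them called with all 4 libraries. Of 32 listed matricellular and adhesive glycoprotein genes 29 were measured and 26 tested, and 0 were called by edgeR or DESeq2, with a median log2 fold change of -0.03. At an unadjusted edgeR p under 0.05 there were 2 higher (CCN4 and TGFBI) and 2 lower (CCN5 and SPOCK1), beside 4.36% and 4.72% of all tested genes. CCN5, a CCN protein that lacks the terminal cysteine knot, had 7.64 and 4.35 CPM in U1_OE libraries and 13.0 and 22.1 CPM in control libraries (log2 fold change -1.55 ± 0.40, SE; edgeR adjusted p = 0.459). CCN4, a Wnt-induced CCN protein, had 7.58 and 3.41 CPM in U1_OE and 2.24 and 1.22 CPM in control libraries (1.66 ± 0.56; edgeR adjusted p = 0.512). TGFBI, the closest relative of periostin, had 1639 and 926 CPM in U1_OE and 789 and 689 CPM in control libraries (0.80 ± 0.30; edgeR adjusted p = 0.539). By DESeq2 the log2 fold change of TGFBI was 0.35 without U1_OE replicate 1, and 1.15 without U1_OE replicate 2, where it was called (adjusted p = 1.77e-06). Both U1_OE libraries lay above both control libraries for CCN4 and below them for CCN5. Among the 26 tested relatives 4 lay above and 6 below in this way, beside 19.7% and 22% of all tested genes.

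Among receptors, DESeq2 called ITGA5, the alpha 5 chain of the classical fibronectin integrin, as higher in U1_OE. ITGA5 had 435 and 311 CPM in U1_OE libraries and 159 and 161 CPM in control libraries. Its log2 fold change was 1.22 ± 0.20 by edgeR (SE; adjusted p = 0.459) and 1.23 by DESeq2 (adjusted p = 4.97e-06). DESeq2 kept this call with each library left out in turn, at adjusted p of 5.29e-09 to 0.0445. Its partner ITGB1, the beta 1 chain, had 1542 and 1939 CPM in U1_OE and 1486 and 1493 CPM in control libraries, with a log2 fold change of 0.22 ± 0.16 (edgeR adjusted p = 0.723). ITGB3, the beta 3 chain of a vitronectin receptor, had 9.24 and 9.44 CPM in U1_OE against 6.71 and 4.31 CPM in control (edgeR adjusted p = 0.539). ITGA6, a laminin receptor chain that also binds CCN proteins, had 1.17 and 4.46 CPM in U1_OE against 6.65 and 12.2 CPM in control (edgeR adjusted p = 0.554). By DESeq2 its fold change on the log2 scale was -1.72 with all libraries, -1.05 without U1_OE replicate 1, and -3.01 without U1_OE replicate 2, where it was called (adjusted p = 0.0160). Of 23 listed receptor genes 18 were tested, with 1 higher and 0 lower by DESeq2 (beside 0.614% and 0.47% of all genes), 0 called by edgeR and a median log2 fold change of 0.13. At an unadjusted edgeR p under 0.05 there were 2 higher and 0 lower, beside 4.36% and 4.72% of all tested genes. Of the 18 tested, 7 lay above both control libraries in both U1_OE libraries and 1 below, beside 19.7% and 22%.

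Of 27 tested genes of the YAP-TEAD pathway 0 were called by edgeR or DESeq2, and the median log2 fold change was 0.08. Both U1_OE libraries lay above both control libraries in 9 of the 27 and below in 3, beside 19.7% and 22%. At an unadjusted edgeR p under 0.05 there were 4 higher, FJX1, TEAD4, TEAD2 and YAP1, and 0 lower, beside 4.36% and 4.72% of all tested genes. The DNA-binding factors among them were TEAD4, at 10.7 and 13.1 CPM in U1_OE and 7.48 and 6.97 CPM in control libraries, and TEAD2, at 49.2 and 38.0 CPM in U1_OE and 21.8 and 30.6 CPM in control libraries. YAP1, their coactivator, had 60.8 and 59.0 CPM in U1_OE and 47.8 and 43.5 CPM in control libraries. FJX1, whose fly relative acts in planar cell polarity, had 22.7 and 27.2 CPM in U1_OE and 16.9 and 14.4 CPM in control libraries (log2 fold change 0.67 ± 0.18, SE; edgeR adjusted p = 0.466).

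Of 24 tested genes of TGF-beta signalling and its targets DESeq2 called 3 as higher in U1_OE and 0 as lower, beside 0.614% and 0.47% of all genes, edgeR called 0, and the median log2 fold change was 0.18. At an unadjusted edgeR p under 0.05 there were 8 higher and 0 lower, beside 4.36% and 4.72% of all tested genes. Both U1_OE libraries lay above both control libraries in 10 of the 24 and below in 1, beside 19.7% and 22%. LTBP1, which tethers latent TGF-beta to fibronectin and fibrillin, had 174 and 99.4 CPM in U1_OE libraries and 38.3 and 40.5 CPM in control libraries (DESeq2 log2 fold change 1.81, adjusted p = 1.21e-06). DESeq2 kept the call of LTBP1 with each library left out (adjusted p of 1.17e-12 to 0.00512). ENG, a TGF-beta co-receptor, had 734 and 569 CPM in U1_OE and 353 and 291 CPM in control libraries (DESeq2 log2 fold change 1.03, adjusted p = 0.000206). Without control replicate 2 it was 0.89 and not called (DESeq2 adjusted p = 0.345). LOX, the collagen cross-linking enzyme whose activation periostin assists in mice, had 794 and 846 CPM in U1_OE and 355 and 406 CPM in control libraries, and DESeq2 called it (log2 fold change 1.12, adjusted p = 7.25e-09). Without control replicate 1 it was 1.03 and not called (DESeq2 adjusted p = 0.0729). TGFBI is in this list and in that of the relatives, and counts in both among those higher at an unadjusted p under 0.05. ENG is also an endothelial gene and LOX, COL1A1 and COL1A2 are also in the mesenchymal list. The summed endothelial markers were higher in both U1_OE libraries, although the median over the 7 measured was lower in both. Of the 22 mesenchymal genes 18 had higher fitted levels in U1_OE, although their sums overlapped. Smooth muscle and pericyte markers had higher sums in both U1_OE libraries, and 7 of the 8 tested had higher fitted levels. The part of those cell types in the TGF-beta values was not tested.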

How the data were processed

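The authors deposited estimated counts per gene, not normalised, in 1 table, and per the submitters' processing notes Trim Galore, STAR, featureCounts and DESeq2 were used with hg38, without stated versions or roles. Only 1.99% of values above 0 lie within 0.01 of a whole number, and no source used here says why. Should reads have been split among genes, overlapping genes would be affected.

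The counts were rounded and tested in R 4.3.3 with edgeR 4.0.16 (filterByExpr, TMM, quasi-likelihood test, Benjamini-Hochberg adjustment over 17317 genes, threshold 0.05), with U1_OE over control in 1 fit without covariates. Standard errors were worked back from the F statistic. Alternatives were DESeq2 1.42.0, limma-voom (limma 3.58.1), RLE and library-size scaling, dropping the filter, keeping only means from 50 counts up, a replicate block and each library left out, where the lone partner is taken to vary as much as the other group. The procedures were tested on simulated data. All 10 genes were matched to GENCODE 29 on GRCh38 through their Ensembl identifiers, which gave spans and exon lengths. Upstream sequence was found for 9 in a RefSeq table (GRCh38.p14), and CCN1 had no entry.

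All 10 genes are named, with, from each companion list, the 3 tested genes of smallest unadjusted edgeR p and those called by DESeq2, and the 3 genes nearest in pattern to the most abundant of the 10. Other genes named were chosen after their values were seen. The genes and lists were chosen with earlier results of these data known. CILP, the scarcest of the 10, rests on 32 to 206 counts per library, and every value rests on 2 libraries per group.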

Additional observations from a re-analysis of the deposited data

How the results depend on the processing

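With RLE scaling, unscaled library sizes, every row kept, means of 50 counts or more, limma-voom and the replicate block, edgeR or limma called 0 genes, and the sign of each of the 10 log2 fold changes was kept. The median over all tested genes was -0.01 under TMM, 0.01 under RLE and -0.04 unscaled. DESeq2 called 189 genes in all, 2 of the 10, 1 receptor gene and 3 TGF-beta genes, and 0 relatives or YAP-TEAD genes. With each library left out, by edgeR and DESeq2, the counts ran from 0 to 322 for all genes, 0 to 2 for the 10, 0 to 5 for relatives, 0 to 3 for receptors, 0 to 6 for TGF-beta genes and 0 for YAP-TEAD genes, and the median of the 10 log2 fold changes from -0.0020 (without control replicate 2) to 0.26. DESeq2 called 55 and 63 genes without control replicates 1 and 2 and 145 and 322 without U1_OE replicates 1 and 2, of which 34, 43, 77 and 101 were among the 189. The cause was not tested.

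Replicate numbers are shared by the groups, but nothing ties same-numbered libraries to a culture or day, and their deviations correlated at -0.11 across 17317 genes. With the replicate block edgeR called 0 genes and DESeq2 80, 1 of them among the 10 (POSTN, adjusted p = 0.0128, whereas CILP, at a log2 fold change of -2.10, had 0.457), 1 relative, 1 receptor gene and 3 TGF-beta genes. With the numbers crossed, a pairing chosen after seeing the data, edgeR called 0 and DESeq2 202, with 1, 1, 2 and 4 in the same lists.

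Signs turned in 12 of 160 refits of single genes over all alternatives. All 12 had a library left out, as only a part of the 160 did. By edgeR and DESeq2, FN1 was 0.19 and 0.19 without control replicate 1, THBS2 0.077 and 0.083 without U1_OE replicate 2 and 0.087 and 0.095 without control replicate 2, TNC -0.35 and -0.33 without U1_OE replicate 1, CCN1 -0.32 and -0.31 and CCN2 -0.18 and -0.17 without control replicate 2. Over all libraries left out, FN1 ran from -0.45 to 0.19, THBS2 from -0.19 to 0.095, TNC from -0.35 to 0.90, CCN1 from -0.32 to 1.19 and CCN2 from -0.18 to 1.07. Mean levels of the 10 genes moved by less than the spread between libraries under RLE scaling and library size alone.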
